A study of Mus musculus with 22 samples.

Results

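Thyroid hormone treatment was followed by large changes of 8 genes in white adipose tissue (WAT) of hypothyroid mice, namely Syt12, Paqr9, Ahcyl1, Pak3, Crtac1, Cndp1, Lonrf3 and Kng2. They were taken from 47628 gene rows measured in WAT and 55327 in striatum, and were chosen by their log2 change in WAT at 6 h or 24 h or by the gap between their WAT and striatum changes at 24 h. Those values are therefore descriptions, in which a call repeats the choice and no p is given. The striatum at 12 h is the one comparison whose TH libraries did not take part in the choice. Its PTU libraries also serve the striatum comparison at 24 h and so did take part. The p-values at 12 h are therefore not fully free of the choice. In striatum at 12 h, Crtac1 had a level 2.28 times that without TH. This difference missed the threshold (adjusted p 0.0599 in edgeR's quasi-likelihood test). Cndp1 and Kng2 had too few striatal reads for a response to be measured.

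RNA was sequenced from 12 WAT and 10 striatum libraries of wild-type C57BL/6J mice, described as males of 8 weeks. In each tissue, a control group had received the antithyroid drug propylthiouracil (PTU) for 2 weeks (WAT PTU, n = 4; striatum PTU, n = 2). The other groups were treated with thyroid hormone (TH) and collected at 6 h or 24 h (WAT, n = 4 each) or at 12 h or 24 h (striatum, n = 4 each). The labels of the TH groups do not mention PTU, and the study's overview lists a hypothyroidism procedure for WAT and none for striatum. Neither the fat depot nor the dose of hormone is given in the labels. For both tissues the overview lists a single intraperitoneal injection of the hormones T3 and T4, with their concentrations. Nothing in the labels says that libraries of a group came from separate animals, so p-values measure the spread between these libraries, which may be technical. In striatum the PTU and 12 h groups each held libraries with and without Y-linked RNA. The libraries of these groups therefore did not all come from the same animal. In whole tissue, fewer cells of a type and less RNA per cell cannot be told apart.

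Thyroid hormone enters the nucleus and binds receptors that sit on DNA together with the retinoid X receptor, typically at paired copies of a short hexamer. Genes with such an element near them can respond within hours, and the products of those genes can then alter further genes, so responses to the hormone spread over time. White fat is a known target, in which the hormone promotes lipid turnover and heat production, whereas in the brain it acts mainly on neuronal and glial maturation. The genes described here have no common pathway. Syt12 is a synaptotagmin, a membrane trafficking protein that does not bind calcium, and Paqr9 is a membrane protein of the family that holds the adiponectin receptors. Ahcyl1 encodes IRBIT, which binds the inositol trisphosphate (IP3) receptor and ion transporters, and Pak3 encodes a kinase activated by the small GTPases Cdc42 and Rac. Crtac1 encodes a secreted protein also known as LOTUS, an antagonist of the Nogo receptor. Cndp1 encodes a peptidase that cleaves carnosine, and Lonrf3 a protein with a RING finger and a LON domain. Kng2 encodes a kininogen, the precursor from which kallikreins release bradykinin.

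In GENCODE M21 on GRCm38, all 8 are protein-coding genes. Syt12 (chr19:4445908-4477447) and Crtac1 (chr19:42283035-42431783) lie on the minus strand of chromosome 19, Ahcyl1 (chr3:107663118-107696560) and Kng2 (chr16:22985854-23029482) also on minus strands, and Paqr9 (chr9:95559657-95568023), Pak3 (chrX:143518591-143797796) and Lonrf3 (chrX:36328353-36362341) on plus strands.

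Upstream sequences from RefSeq (GRCm38.p6) were used for 5 of the 8 genes, at 10 start sites. The sequence 250 bases before to 50 bases after each start was searched on both strands for the hexamer AGGTCA and for its direct repeat with 4 spacer bases (DR4, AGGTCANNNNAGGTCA), which contains the hexamer. Of 32851 such sequences of all genes, 16.3% held the hexamer and 0.0152% (5 sequences) a DR4. Among the 10 start sites of Ahcyl1, Pak3, Crtac1, Lonrf3 and Kng2 none had a DR4 and 1 had the hexamer, that of Kng2. Shown here are the 250 bases before the start of the late riser Kng2 (chr16:23029102-23029351, minus strand), of the late faller Crtac1 (chr19:42431789-42432038, minus strand) and of the early faller Pak3 (chrX:143518341-143518590, plus strand), 5′ to 3′, with the hexamer in capitals.
Kng2: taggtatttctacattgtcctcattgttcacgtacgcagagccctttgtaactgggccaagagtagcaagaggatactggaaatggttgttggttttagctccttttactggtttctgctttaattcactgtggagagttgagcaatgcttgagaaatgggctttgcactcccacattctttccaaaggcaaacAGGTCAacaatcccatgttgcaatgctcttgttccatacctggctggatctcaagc
Crtac1: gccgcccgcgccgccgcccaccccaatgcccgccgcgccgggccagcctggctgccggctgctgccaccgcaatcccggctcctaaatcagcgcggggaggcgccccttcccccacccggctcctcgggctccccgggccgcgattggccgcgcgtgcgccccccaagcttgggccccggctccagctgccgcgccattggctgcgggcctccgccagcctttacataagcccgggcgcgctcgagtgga
Pak3: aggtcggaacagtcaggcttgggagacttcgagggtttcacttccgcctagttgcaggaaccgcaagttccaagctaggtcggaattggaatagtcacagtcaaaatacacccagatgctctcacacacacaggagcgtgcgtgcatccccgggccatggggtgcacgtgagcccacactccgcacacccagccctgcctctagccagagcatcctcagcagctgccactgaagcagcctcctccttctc
The hexamer of Kng2 begins 56 bases before the start. These windows lie outside annotated exons, that of Kng2 between the first exons of alternative transcripts. Their content of G and C differed, with 44.4% for Kng2, 58.4% for Pak3 and 77.6% for Crtac1. A match of letters in such a window does not mark a bound site, and the absence of one says only that these letters are not there.

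Library totals lay between 17.3 and 26.96 M counts in WAT and between 8.06 and 10.2 M in striatum. Levels are given as normalised counts, which are scaled within a tissue and are not comparable between tissues. The white adipocyte markers (8 genes, among them Adipoq and Plin1) summed to 15281 to 32132 CPM (counts scaled to a common library size) in the WAT libraries and to 46.1 to 111 CPM in striatum, and the markers of striatal projection neurons (9 genes) to 19.7 to 29.4 CPM in WAT and 304 to 6130 CPM in striatum. The lowest striatal value belonged to TH 24 h replicate 2, which stood apart from the other striatum libraries. In the striatum 6 of 10 libraries had no more than 0.727 CPM from 4 Y-linked genes and high Xist, against their label as males, including all 4 libraries at 24 h, 1 of 4 at 12 h and 1 of 2 without TH. Sex type and group are thus partly confounded in striatum, whereas all WAT libraries had Y-linked RNA (132 to 180 CPM).

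In WAT, a gene was called when its adjusted p was under 0.05 in edgeR's quasi-likelihood test over 17928 genes. At 6 h 5 of the 8 genes were called, with Syt12, Paqr9 and Ahcyl1 higher and Pak3 and Lonrf3 lower, where 7.23% of all genes were called (4.18% higher, 3.05% lower). At 24 h 7 of the 8 were called, with Syt12, Paqr9, Ahcyl1 and Kng2 higher and Pak3, Crtac1 and Cndp1 lower, where 17.1% of all genes were called (7.45% higher, 9.62% lower). Kng2 passed the filter of a mean above 10 normalised counts only through the 24 h libraries in which it was high, so it had to differ there. Cndp1, Crtac1 and Lonrf3 also had a group mean under 10 (1.54 and 6.47 at 24 h, 3.27 at 6 h) and passed through their other groups. The libraries of the 2 groups did not overlap for 5 of the 8 genes at 6 h and 7 at 24 h, compared with 13.9% and 19.3% of all genes. Because the genes were chosen for these changes, the counts describe them and show nothing further. The order of events differed among them, and the 8 genes fall into 4 courses: early and kept (Syt12, Paqr9 and Pak3), gradual (Ahcyl1), late (Kng2, Crtac1 and Cndp1) and transient (Lonrf3). Between 6 h and 24 h, 5 of the 8 were called (Ahcyl1, Lonrf3 and Kng2 higher at 24 h, Crtac1 and Cndp1 lower), where 7.41% of all genes were, and the same 5 did not overlap between these times, as was so for 21.8% of all genes.

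**Figure D1:**
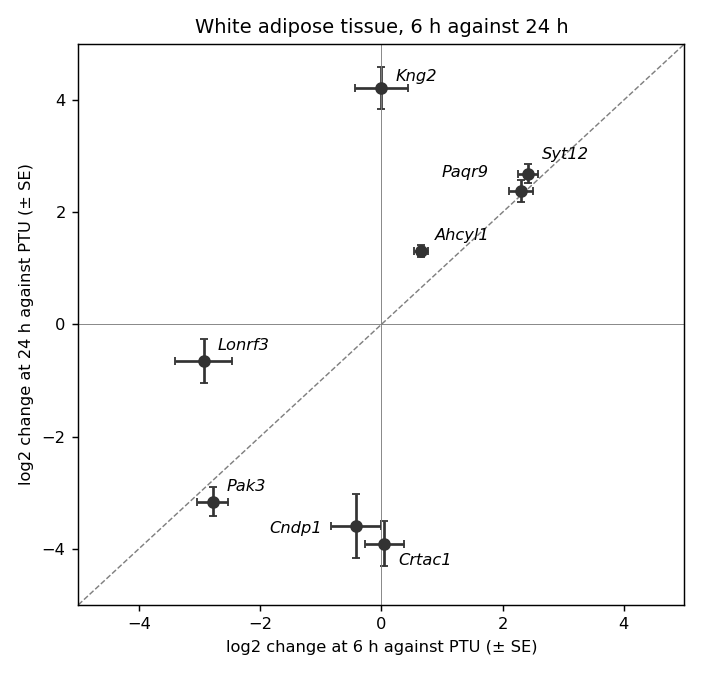
The log2 change of each gene in WAT at 6 h (horizontal axis) is plotted against that at 24 h (vertical axis), with bars for the standard error and a dashed line where both are equal. Syt12, Paqr9 and Pak3 lie near the line, Kng2, Crtac1 and Cndp1 near 0 at 6 h and far from 0 at 24 h, and Lonrf3 at -2.94 at 6 h and -0.65 at 24 h.

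Syt12, Paqr9 and Pak3 had reached most of their 24 h change by 6 h. Syt12 had normalised counts of 223, 268, 230 and 159 in the PTU libraries, 1077, 1054, 1187 and 1384 at 6 h and 1578, 1084, 1443 and 1558 at 24 h. Every TH library exceeded every PTU library, while 6 h and 24 h overlapped. The log2 change was 2.42 ± 0.17 (SE) at 6 h and 2.68 ± 0.17 at 24 h, so that 90.0% of the later change was present at 6 h, and the 2 times differed by 0.27 ± 0.16. Paqr9, the most abundant of the early genes, went from 700, 620, 582 and 491 in the PTU libraries to 2772, 2494, 2984 and 3594 at 6 h and to 3100, 2073, 4125 and 3083 at 24 h. Its groups were separate from PTU at both times, and the spread widened at 24 h (SD 838, compared with 467 at 6 h). Its log2 change was 2.31 ± 0.20 at 6 h and 2.37 ± 0.20 at 24 h, or 97.3% at the early time. Pak3 moved the other way, from 69.2, 128, 88.4 and 77.5 to 13.4, 11.3, 11.8 and 15.6 at 6 h and 7.72, 8.73, 9.55 and 14.4 at 24 h. The TH libraries all lay far below the PTU libraries, and those of 6 h and 24 h overlapped. This was a log2 change of -2.79 ± 0.26 at 6 h and -3.16 ± 0.27 at 24 h (6.90 and 8.94 times lower), with 88.2% of it reached at 6 h.

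**Figure D2:**
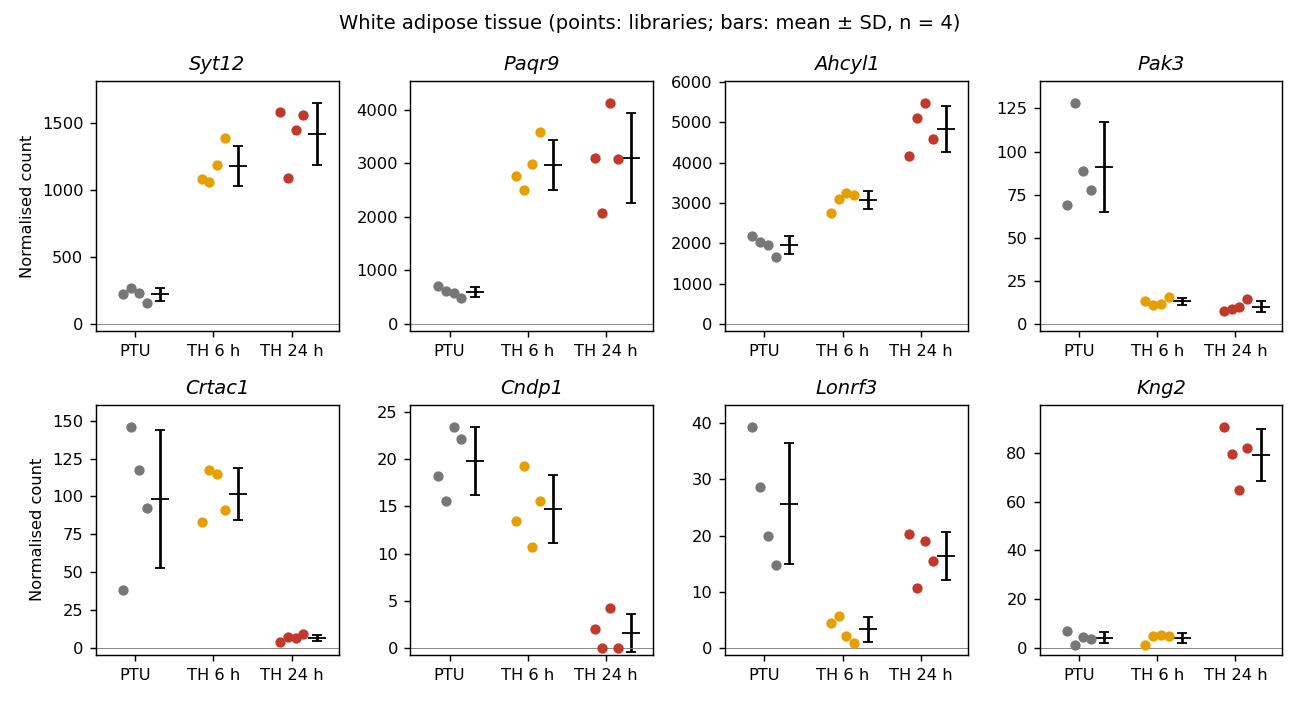
Normalised counts of the 8 genes in each WAT library (points, grouped as PTU, TH 6 h and TH 24 h on the horizontal axis), with the mean and SD of the 4 libraries as bars. Syt12, Paqr9 and Pak3 had moved by 6 h, Ahcyl1 rose in steps, Crtac1, Cndp1 and Kng2 differed from PTU at 24 h and not at 6 h, and Lonrf3 was low at 6 h alone.

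Ahcyl1 took an intermediate course. Its normalised counts were 2178, 2023, 1966 and 1656 in the PTU libraries, 2747, 3090, 3244 and 3193 at 6 h and 4177, 5118, 5480 and 4587 at 24 h. No library of one group overlapped those of another. The log2 change was 0.65 ± 0.11 at 6 h and 1.31 ± 0.11 at 24 h, so that 49.7% of the log2 change had occurred at 6 h, and it was the smallest 24 h change of the 7 genes called at that time (2.47 times higher). Per kilobase of exon Ahcyl1 had the highest level of the 8 genes in both tissues without TH, with 13.6 ± 1.52 CPM per kb in WAT (SD, n = 4) and 53.5 ± 1.11 in striatum (n = 2).

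Kng2, Crtac1 and Cndp1 had not moved detectably at 6 h. Kng2 was near the detection limit in the PTU libraries (6.72, 1.20, 4.51 and 3.69 normalised counts) and at 6 h (1.12, 4.83, 5.35 and 4.93), and reached 90.7, 79.5, 64.7 and 81.9 at 24 h. The PTU and 6 h libraries overlapped, and all 24 h libraries lay far above them. Its log2 change was -0.00 ± 0.44 at 6 h and 4.21 ± 0.37 at 24 h (18.5 times higher), which ranked 42nd by size among the 17928 genes. Crtac1 had 38.4, 146, 117 and 92.2 in the PTU libraries, 82.8, 117, 115 and 91.2 at 6 h and 3.86, 6.79, 6.37 and 8.85 at 24 h. The 6 h libraries lay within the range of the PTU libraries, and the 24 h libraries fell below both. Its log2 change was 0.05 ± 0.32 at 6 h and -3.91 ± 0.40 at 24 h (15.04 times lower). Cndp1 was a weakly expressed gene, with 18.3, 15.6, 23.5 and 22.1 in the PTU libraries, 13.4, 19.3, 10.7 and 15.6 at 6 h, and 1.93, 0, 4.25 and 0 at 24 h. The 6 h libraries overlapped the PTU libraries, and the 24 h libraries rest on 2, 0, 4 and 0 reads. Its log2 change was -0.41 ± 0.41 at 6 h and -3.59 ± 0.57 at 24 h, and it was -4.65 at 24 h without replicate 3 of that group, which held 4 of those reads.

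Lonrf3 was low at 6 h only. It had 39.4, 28.7, 19.9 and 14.8 normalised counts in the PTU libraries, 4.47, 5.63, 2.14 and 0.821 at 6 h and 20.3, 10.7, 19.1 and 15.5 at 24 h. The 6 h libraries lay below all others, and the 24 h libraries overlapped the PTU libraries. The log2 change was -2.94 ± 0.47 at 6 h (7.65 times lower), -0.65 ± 0.39 at 24 h, and 2.28 ± 0.48 between the times. The WAT genes most like Lonrf3 across the 12 libraries included Arntl, a core gene of the circadian clock, which had 464 ± 158 normalised counts without TH, 88.2 ± 17.8 at 6 h and 534 ± 52.1 at 24 h (SD, n = 4 each). Other clock genes, looked up after this was seen, also differed from PTU, most of them at 6 h. Npas2, a partner of Arntl in the clock, changed by -3.99 ± 0.33 on the log2 scale at 6 h and by 0.12 ± 0.27 at 24 h, and Clock by -0.81 ± 0.09 and -0.16 ± 0.09. The clock output gene Dbp changed by 4.68 ± 0.42 at 6 h and 0.62 ± 0.39 at 24 h, and the clock repressors Per2 by 2.65 ± 0.21 and 0.41 ± 0.21 and Per3 by 2.74 ± 0.27 and -0.65 ± 0.27. The clock repressors Nr1d1 and Nr1d2 were called lower at 24 h, with changes of 0.59 ± 0.19 (not called) and 1.46 ± 0.25 at 6 h and -1.67 ± 0.19 and -1.30 ± 0.25 at 24 h. The hour of the day at which mice were collected is not given in the labels, and its part in the 6 h values of Lonrf3 or of any other gene was not tested.

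Adipocyte markers shifted over the same times. Over all genes 4.18% were called higher and 3.05% lower at 6 h, and 7.45% higher and 9.62% lower at 24 h. Of 8 white adipocyte markers 6 were called lower at 24 h and 0 at 6 h (1 by DESeq2 and at an unadjusted p under 0.05), with a summed level of 24499 to 32132 CPM without TH, 21783 to 25483 at 6 h and 15281 to 19992 at 24 h. Of 6 brown adipocyte markers 3 were called higher at 6 h and 4 at 24 h, and their sum was 82.4 to 153 CPM without TH, 232 to 445 at 6 h and 354 to 1016 at 24 h. Skeletal muscle markers varied within every group (83.4 to 20412 CPM without TH, 37.9 to 3872 at 6 h and 1530 to 11235 at 24 h), with 0 of 6 called at either time by edgeR or DESeq2 and 0 at an unadjusted p under 0.05. Stratified epithelium markers (5 genes, 4 tested) varied widely among libraries without TH and at 6 h. Their sum was 0.167 to 18.3 CPM without TH, 0.824 to 131 at 6 h and 0.135 to 0.361 at 24 h. Of them 0 were called at 6 h (1 by DESeq2 and 2 at an unadjusted p under 0.05) and 1 lower at 24 h. Between 6 h and 24 h, 3 of them were called lower, as were 4 of the 8 white and 1 of the 6 brown adipocyte markers. In the same comparison Crtac1 and Cndp1 were lower, and 7.41% of all genes were called. Among the stratified epithelium markers Trim29 passed the filter only through the 6 h libraries. It had 9.65 to 666 normalised counts there, and at most 16.3 without TH and 3.32 at 24 h. The part of these shifts in the values above was not tested. Kininogen is made mainly by liver, and the 5 liver markers summed to 57.6 to 118 CPM without TH, 47.1 to 76.0 at 6 h and 44.8 to 55.4 at 24 h. Most of this was albumin (Alb), called lower at 24 h, while Serpina1c had 30.7 to 89.3 normalised counts without TH and 81.9 to 107 at 24 h and Apoa1 11.5 to 18.9 and 11.6 to 19.9, neither called. Fgb was at 0 in 1 PTU library, 3 libraries at 6 h and all 4 at 24 h, and Ttr at 0 in 2, 3 and 3. Their part in the 24 h level of Kng2 was not tested.

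**Figure D3:**
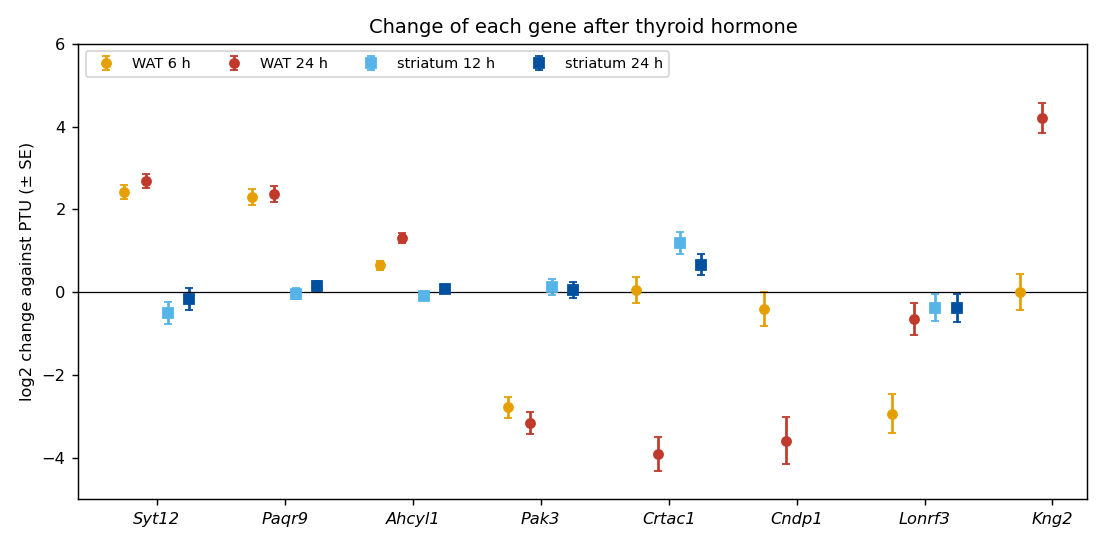
The log2 change against PTU (vertical axis, bars for the standard error) is shown for each gene in WAT at 6 h and 24 h (circles) and in striatum at 12 h and 24 h (squares). Striatal values lie between -0.50 and 1.19, Crtac1 at 12 h being the highest, and are missing for Cndp1 and Kng2, which had too few striatal counts.

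In striatum 6 of the 8 genes passed the filter of a mean above 10 normalised counts, and 0 of 6 were called at 12 h, where 0.96% of 15827 genes were called (0.733% higher, 0.227% lower). At an unadjusted p under 0.05 there was 1 of the 6, Crtac1, and DESeq2 also called Crtac1 alone. With 2 PTU libraries, groups did not overlap for 36.4% of all genes at 12 h, and for 4 of these 6 (Syt12, Ahcyl1, Crtac1 and Lonrf3). At 24 h, a contrast that entered the choice, 0 of 6 were called by edgeR or by DESeq2 (1 at an unadjusted p under 0.05), where edgeR called 0.348% of all genes, and Crtac1 and Lonrf3 did not overlap, as was so for 18.2% of all genes.

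Crtac1 had 156 and 142 normalised counts in the striatum PTU libraries (replicates 3 and 6), 232, 316, 505 and 309 at 12 h and 203, 254, 240 and 246 at 24 h. All 8 TH libraries lay above both PTU libraries. The log2 change was 1.19 ± 0.26 at 12 h (p 0.000784, adjusted p 0.0599 in edgeR's quasi-likelihood test, 95% interval 0.68 to 1.70) and 0.66 ± 0.26 at 24 h. The gene was called under 5 of 17 alternative settings, among them DESeq2 (adjusted p 0.000981), and its adjusted p was 0.329 when PTU replicate 3 was left out and 0.348 with the replicate number as a block. Markers of cortical excitatory neurons (6 genes, 0 called by edgeR, 3 at an unadjusted p under 0.05 and 1 by DESeq2) had a higher sum at 12 h as well, with 767 and 414 CPM in the PTU libraries, 1015, 1594, 1605 and 1404 at 12 h and 779, 2501, 597 and 1463 at 24 h. With this sum as a covariate the log2 change at 12 h was 0.92 ± 0.30 (adjusted p 0.132 in edgeR's quasi-likelihood test). Among the libraries without Y-linked RNA, Crtac1 had 142 without TH, 232 at 12 h and 203 to 254 at 24 h, and among those with it, 156 without TH and 309 to 505 at 12 h.

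The other genes tested in striatum stayed within or close to the spread of their libraries. Syt12 had 110 and 157 without TH, 93.4, 99.8, 97.0 and 87.4 at 12 h and 136, 65.0, 146 and 132 at 24 h. The log2 change at 12 h was -0.50 ± 0.27 (adjusted p 0.313 in edgeR's quasi-likelihood test, 95% interval -1.02 to 0.02), and the lowest 24 h value belonged to the library that stood apart. Without that library the 12 h change was -0.51 ± 0.15 (adjusted p 0.0628 in edgeR's quasi-likelihood test). It was -0.74 without PTU replicate 3, 0.077 with the sum of cortical markers as a covariate and -0.03 with the replicate block, and it was not called in any of these. Paqr9 had 1037 and 1032 without TH, 1101, 1086, 919 and 930 at 12 h and 1233, 1080, 1279 and 970 at 24 h. This amounted to a log2 change of -0.04 ± 0.13 at 12 h (adjusted p 0.905 in edgeR's quasi-likelihood test), within -0.29 to 0.21. Ahcyl1 had 3319 and 3418 without TH, 3251, 3126, 2998 and 3157 at 12 h and 3765, 3556, 3407 and 3512 at 24 h. Its log2 change at 12 h was -0.10 ± 0.09 (adjusted p 0.527 in edgeR's quasi-likelihood test), within -0.27 to 0.07.

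Pak3, a kinase with high levels in neurons, had 1530 and 1330 normalised counts without TH in striatum, 1645, 1625, 1543 and 1408 at 12 h and 1231, 2057, 1214 and 1425 at 24 h. The highest value again came from TH 24 h replicate 2, the library with the most cortical marker RNA. Its log2 change at 12 h was 0.12 ± 0.19 (adjusted p 0.763 in edgeR's quasi-likelihood test, interval -0.26 to 0.50). Lonrf3 had 32.5 and 28.7 without TH, 25.5, 16.6, 25.4 and 26.4 at 12 h and 25.4, 28.03, 10.7 and 28.1 at 24 h. The TH libraries lay below both PTU libraries at either time, by a log2 change of -0.38 ± 0.33 at 12 h (adjusted p 0.561 in edgeR's quasi-likelihood test, interval -1.03 to 0.28), and striatum was not sampled at 6 h, when Lonrf3 was low in WAT. Cndp1 had 1 and 1 reads without TH, 3, 4, 1 and 12 at 12 h and 4, 4, 1 and 2 at 24 h, and Kng2 had 0 and 2, then 0 in all 4 libraries at 12 h, then 0, 1, 0 and 1. A change of these genes was not detectable at this depth.

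**Figure D4:**
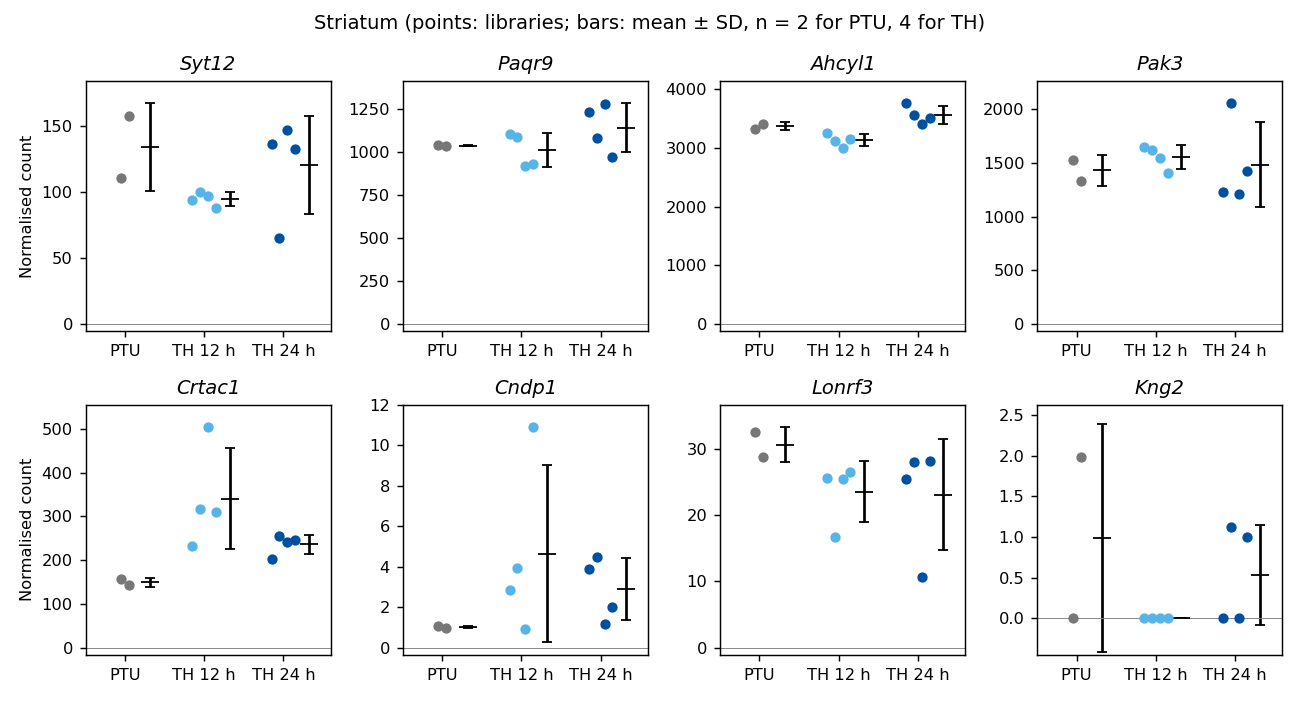
Normalised counts of the 8 genes in each striatum library (points, grouped as PTU, TH 12 h and TH 24 h on the horizontal axis), with mean and SD as bars (2 PTU libraries, 4 per TH group). Crtac1 lies above both PTU libraries in all TH libraries, and Cndp1 and Kng2 stay below 11 normalised counts.

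The change at 24 h in WAT minus that in striatum, obtained from 1 fit over all 22 libraries, was 2.85 ± 0.30 on the log2 scale for Syt12, 2.24 ± 0.25 for Paqr9 and 1.23 ± 0.15 for Ahcyl1. It was -3.21 ± 0.34 for Pak3, -4.56 ± 0.54 for Crtac1 and -0.26 ± 0.53 for Lonrf3. With 5 of 6 called, where 5.14% of 12766 genes were, the exception being Lonrf3, this count again repeats the choice of the genes. The difference of Crtac1 was made up of a lower level in WAT and a higher one in striatum, those of the other 4 almost entirely of the WAT change. The early time differed between tissues (6 h and 12 h), and these values were not compared. Base levels differed as well. Pak3 had 0.443 ± 0.127 CPM per kb in WAT without TH and 15.9 ± 1.57 in striatum, and Crtac1 had 1.75 ± 0.81 and 6.06 ± 0.39 (SD, n = 4 and 2). For Syt12 the levels without TH were near each other, 1.85 ± 0.38 and 2.56 ± 0.64 CPM per kb, and at 24 h they were 11.9 ± 1.93 and 2.30 ± 0.71. The tables of the tissues were not made alike, so levels across them are approximate.

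In lists of their families and pathways with 85 genes, 61 were tested in WAT, of which 0 were called higher and 3 lower at 6 h, where 7.23% of all genes were called, and 3 higher and 5 lower at 24 h, where 17.1% were. The median log2 change of the lists was -0.01 at 6 h and -0.10 at 24 h, compared with -0.03 and -0.00 over all genes. These counts are near or below the shares over all genes. In striatum 70 were tested at 12 h, and 1 was called where 0.96% of all genes were. This was the receptor gene Tnfrsf19 of the Nogo receptor list. It fell by 0.69 ± 0.09 on the log2 scale (adjusted p 0.0155 in edgeR's quasi-likelihood test).

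Of the 16 other synaptotagmins 8 were measurable in WAT, and Syt13 alone was called, with a log2 change of 1.46 ± 0.44 at 24 h from a low level (11.4 ± 6.25 to 32.4 ± 13.7 normalised counts). Syt9 was near 0 in WAT (at most 4.28 normalised counts in a library). Among 9 measured PAQR relatives 1 was called, Mmd, a gene named after macrophage differentiation, and in the opposite direction to Paqr9, by -0.85 ± 0.16 at 6 h and -1.48 ± 0.16 at 24 h. The adiponectin receptor genes Adipor1 and Adipor2 changed by -0.20 ± 0.09 and 0.03 ± 0.19 at 24 h, which did not pass the test.

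In the list around Ahcyl1, 1 gene was called higher and 3 lower of 9 at 24 h, where 7.45% of all genes were called higher and 9.62% lower. Ahcyl2, the closest relative of Ahcyl1, fell from 2440 ± 332 to 1611 ± 176 at 6 h and 1466 ± 154 at 24 h, a log2 change of -0.60 ± 0.12 and -0.74 ± 0.12, while Ahcyl1 was higher. Itpr2, an IP3 receptor and so of the kind IRBIT binds, was higher at 24 h by 1.09 ± 0.13. Mat2a, which makes S-adenosylmethionine, changed by 0.36 ± 0.12 at 6 h (not called) and by -0.44 ± 0.12 at 24 h. Its difference between the times, -0.79 ± 0.12, was called. Cbs, which commits homocysteine to cysteine synthesis, changed by -0.41 ± 0.32 at 6 h (not called) and by -1.49 ± 0.33 at 24 h. Ahcy itself, the hydrolase from which the family is named, had 369 to 604 normalised counts without TH, 369 to 399 at 6 h and 450 to 680 at 24 h and did not pass the test.

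None of 11 measured genes of PAK signalling was called by edgeR in WAT at either time (2 at an unadjusted p under 0.05 at each, and 0 at 6 h and 1 at 24 h by DESeq2), where 7.23% and 17.1% of all genes were. The closest relatives of Pak3 changed by -0.04 ± 0.26 (Pak1) and -0.11 ± 0.08 (Pak2) at 24 h. In the Nogo receptor list 1 of 8 was called, Rtn4 itself, which encodes the Nogo protein, at -0.43 ± 0.11 at 6 h and -0.41 ± 0.11 at 24 h. None of 7 carnosine genes was called by edgeR or DESeq2 (2 and 1 at an unadjusted p under 0.05 at 6 h and 24 h). Cndp2, the closest relative of Cndp1, changed by -0.08 ± 0.11 at 24 h. None of 5 LON proteins was called against PTU by edgeR or DESeq2 (0 and 1 at an unadjusted p under 0.05). Lonrf1 changed by 0.19 ± 0.19 at 6 h and -0.51 ± 0.19 at 24 h, with a called difference between the times of -0.70 ± 0.19, and Lonrf2 by -0.05 ± 0.35 and -0.50 ± 0.36.

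**Figure D5:**
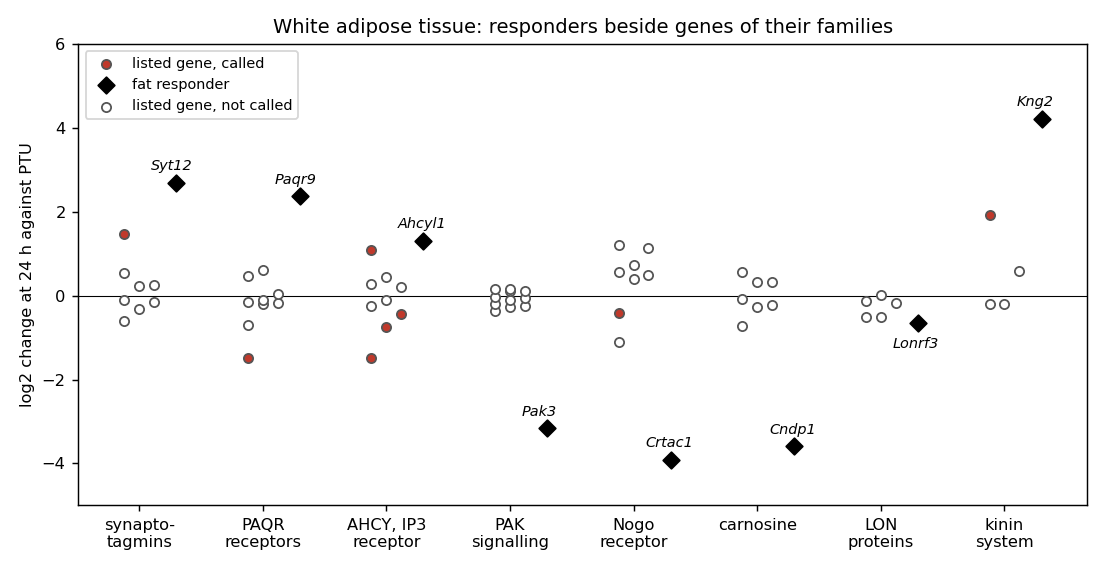
The log2 change at 24 h in WAT (vertical axis) is shown for the 8 genes (diamonds) and for the measured genes of their family or pathway lists (circles, filled where called). The place of the diamonds repeats the choice of the genes, and that of Lonrf3 (-0.65 ± 0.39) lies within its error of Lonrf1 (-0.51 ± 0.19). The called circles are Syt13, Mmd, Ahcyl2, Itpr2, Mat2a, Cbs, Rtn4 and Cpn2.

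Of 12 kinin system genes 4 were measurable in WAT. Cpn2, a subunit of the carboxypeptidase that inactivates kinins, was called at 24 h with a log2 change of 1.92 ± 0.50. Its change at 6 h was already 1.76 ± 0.50, which edgeR did not call. The bradykinin receptors Bdkrb1 and Bdkrb2 did not exceed 4.79 normalised counts in any WAT library, nor Klkb1, plasma kallikrein, 7.75. Kng1, the neighbouring kininogen gene, had 4.10 ± 4.51 without TH, 2.33 ± 0.94 at 6 h and 16.6 ± 2.79 at 24 h, below the filter and thus untested. Of 2245 stretches of 50 bases in the Kng2 transcript 409 (18.2%) also occur in Kng1. How reads that match both genes were counted was not tested, so the counts of both are uncertain to that extent. Syt12, Crtac1 and Cndp1 overlap exons of genes on the opposite strand over 17.2%, 7.75% and 7.75% of their exonic length. The strand setting of the counting is not stated, so reads of such partners cannot be told apart from their own. Cndp1 lies on the minus strand of chromosome 18. The partner of Syt12, A930001C03Rik, held at most 7 reads in any WAT library.

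The WAT genes with the nearest profiles were found among 13946 genes, by the root mean square distance between standardised log2 CPM over the 12 WAT libraries. This is a description over libraries that share their 3 groups. Among those near Syt12 were Hr (distance 0.156) and Pald1 (0.158). Hr, a corepressor long known as a target of thyroid hormone, changed by 3.56 and 4.19 on the log2 scale at 6 h and 24 h. Paqr9 was nearest to Pald1 (0.113), and Syt12 was also near it (0.165). Ahcyl1 was nearest to Letm1 (0.131), a mitochondrial inner membrane protein with changes of 0.76 and 1.63. The nearest to Pak3 was Camk2n1 (0.237), an inhibitor of calmodulin kinase, with -0.995 and -1.30.

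Crtac1 was nearest to Tmem43 (0.146), with changes of -0.03 and -1.19, and second to Slc7a10 (0.215), an amino acid transporter of white adipocytes, with 0.16 and -1.42. Cndp1 and Kng2 had looser neighbours, Snx13 (0.241) and the pseudogene Rps18-ps3 (0.238), whose own changes at 24 h were small (-0.48 and 0.47). Of the next neighbours of Kng2, Cdkn1a, a cell cycle inhibitor, changed by -0.18 at 6 h and 1.79 at 24 h. Lonrf3 had the loosest match, at 0.344 to Adamtsl5, followed by Grk5 (0.358) and Arntl (0.377).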

How the data were processed

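Libraries were prepared by the Lexogen SENSE protocol from Trizol (WAT) or RNeasy (striatum) RNA and run on an Illumina NextSeq. The authors deposited raw counts per gene symbol, 1 table per tissue. They describe alignment with Bowtie (Bowtie2 2.2.6.2 per the labels) to GRCm38 (mm10), removal of low quality alignments and counting with htseqcount; the annotation release and strand setting are not given in the sources used here. There were 47643 rows in WAT and 55341 in striatum. In them 15 and 14 rows were symbols turned into dates (at most 0.0825% and 0.201% of a library's counts), which were left out. In WAT 86 further rows copied another row within 2% in every library, none of them a gene described here. A self-test on simulated counts, drawn with the fitted spread, kept false calls under a set limit. It set no condition on how many of the changes put in were recovered.

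Tests were run in edgeR 4.0.16 under R 4.3.3 (TMM scaling, factors 0.917 to 1.11 in WAT and 0.957 to 1.03 in striatum; quasi-likelihood test, 3 groups of a tissue in 1 model; genes with a mean above 10 normalised counts; Benjamini-Hochberg adjustment over all genes tested). The tissue difference came from 1 fit over the 12766 genes tested in both tables. A normalised count is a count scaled to the mean effective library size of its tissue. The genes and lists were chosen with earlier results of these data known. Named relatives are those called in WAT or in striatum at 12 h, at most 4 per list, and the closest paralogs; named neighbours are the 3 of smallest distance. Alternatives were DESeq2 1.42.0, another scaling (RLE), no filter, only the groups compared, WAT rows without copies, a Y-linked or cortical covariate in striatum, the replicate number as a block, and each library left out. Replicate pairs differed beyond counting noise (chi-square per degree of freedom at least 3.49), so each library was counted as 1 sample. Same-numbered libraries did not consistently deviate together. Their correlation r lay between -0.472 and 0.394 over 12 pairs in WAT and between -0.395 and 0.267 over 6 in striatum. It exceeded 0.1 in 4 of the WAT pairs and 3 of the striatum pairs. The numbers were not used as pairs in the main fits. Promoter sequences are RefSeq's (GRCm38.p6), and gene positions GENCODE M21's.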

Additional observations from a re-analysis of the deposited data

Results flagged for a closer look

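Of 40 gene and group combinations of 4 libraries, 3 had a library far from the others by Dixon's test, and chance alone marks about 1 in 20. Lonrf3 had 16.6 normalised counts in striatum TH 12 h replicate 2, where the other 3 libraries had 25.4 to 26.4, and 10.7 in striatum TH 24 h replicate 3, where the others had 25.4 to 28.1. Kng2 had 1.12 in WAT TH 6 h replicate 1, where the others had 4.83 to 5.35, a gap of a few reads.

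The change at 24 h differed between WAT and striatum, by the interaction term of the fit over both tissues, for Syt12 (2.85 on the log2 scale), Paqr9 (2.24), Ahcyl1 (1.23), Pak3 (-3.21) and Crtac1 (-4.56). The genes were chosen with this difference in view, so it is a description.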

How the results depend on the processing

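In WAT and in the difference between tissues, each call and each direction of a called change held under every alternative run. With the replicate block in WAT, 5, 7 and 5 of the 8 genes were called at 6 h, at 24 h and between them, as without it, and the log2 changes at 24 h were 2.68 for Syt12 and -3.16 for Pak3. Own-numbered libraries correlated best in 6 of 24 comparisons in WAT and 7 of 12 in striatum. In striatum the PTU libraries carry numbers 3 and 6, so that a replicate block, added after seeing the data, compares TH with PTU through number 3 alone. It gave 0 of 6 called at either time, a log2 change of Crtac1 of 1.44 at 12 h (adjusted p 0.348, edgeR's quasi-likelihood test) and a turned sign of Pak3 (-0.10).

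In striatum at 12 h the number of genes called was 0 of 6, and 1 (Crtac1) with DESeq2, with no filter and with the groups compared alone. Leaving out each library in turn gave 0 to 1, the call of Crtac1 appearing without TH 12 h replicate 1 (adjusted p 0.0413, edgeR's quasi-likelihood test) and without TH 24 h replicate 2 (0.0240). The covariate of cortical markers, added after seeing the data, turned the sign at 12 h of Syt12 to 0.077, of Paqr9 to 0.14 and of Pak3 to -0.27, none called; the cause was not tested. The tissue difference of Syt12 was 2.56 without striatum PTU replicate 6, and Cndp1 in WAT had -4.65 at 24 h and -4.25 between the times without TH 24 h replicate 3.

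Counts over all genes moved more. In WAT they were 1296 at 6 h (684 without TH 6 h replicate 3 to 2145 with DESeq2), 3060 at 24 h (1957 without PTU replicate 2 to 4264 without PTU replicate 1) and 1329 between the times (661 without TH 6 h replicate 2 to 2433 with those groups alone). In striatum they were 152 at 12 h (0 in edgeR without PTU replicate 3 and with the replicate block, with 2025 and 1406 at an unadjusted p under 0.05, to 1468 with the groups compared alone) and 55 at 24 h (0 in edgeR with the groups compared alone, without PTU replicate 3 and with the block, with 1111, 896 and 805 at an unadjusted p under 0.05, to 275 with the cortical covariate), and for the tissue difference 656 (216 without striatum PTU replicate 6 to 1084 without WAT PTU replicate 1). Depth limits Cndp1, Kng2 and Lonrf3, whose lowest groups rest on few reads, and no response could be measured for Cndp1 and Kng2 in striatum.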
